A study of Caenorhabditis elegans with 24 samples.

Results

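The transcripts of bcl-11 and of 8 subunits of the SWI/SNF chromatin remodelling complex (swsn-1, swsn-3, swsn-4, swsn-6, swsn-7, swsn-8, swsn-9 and pbrm-1) were followed across 6 genotypes of Caenorhabditis elegans. The 9 genes were chosen by name, and all 9 were among the 13131 genes that passed the filter on low values in both of the deposited tables, which list 19320 and 19718 genes. RNA of whole hermaphrodites on their first day as young adults was measured in 24 libraries, 4 per genotype, from animals raised at 20 °C on an Escherichia coli lawn. In the wild-type background the genotypes were bcl-11(bon125), bcl-11(bon144) and wt (strain N2). All animals of the daf-2 background carry the e1370 mutation of the insulin/IGF-1 receptor gene daf-2. They were the double mutants daf-2(e1370);bcl-11(bon125), called the bon125 double mutants here, the double mutants daf-2(e1370);bcl-11(bon144), called the bon144 double mutants, and, as their control, daf-2(e1370). Both bcl-11 alleles were made by gene editing and are hypomorphic. According to the study's description, bon125 is a frameshift that leaves the C2H2 zinc fingers intact and adds amino acids, while its discussion also speaks of a variant that lacks the C-terminal part, and bon144 is an in-frame deletion-insertion in a conserved domain. The level of the bcl-11 transcript was not used as a check of the labels.

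SWI/SNF complexes use the energy of ATP to slide or eject nucleosomes and thereby open or close regulatory DNA to transcription factors. A catalytic ATPase and a set of core subunits occur in every form of the complex, and further subunits define either the BAF form, with an ARID1-type protein, or the PBAF form, with ARID2 and polybromo. BCL11A and BCL11B, the mammalian relatives of the zinc finger protein BCL-11, are found in BAF complexes of mammalian cells. In C. elegans the complex is known for roles in asymmetric cell division, in gonad and vulva development and, in adults, in longevity downstream of reduced insulin signalling.

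In the WBcel235 assembly, bcl-11 (WBGene00017430) lies on chromosome V at 6356025 to 6362997, on the plus strand, with 3717 bases of merged exon. The ATPase gene swsn-4 (WBGene00004204, the BRG1/BRM homologue) lies on chromosome IV at 11126024 to 11131162, on the plus strand, with 4813 bases. The scaffold subunit gene swsn-1 (WBGene00004203, homologous to mammalian SMARCC proteins) is on chromosome V at 20239182 to 20249488, minus strand, with 4075 bases. The BAF gene swsn-8 (WBGene00002717, named let-526 in the annotation, homologous to ARID1) is on chromosome I at 5300852 to 5317392, minus strand, with 6608 bases. The PBAF genes are swsn-7 (WBGene00007433, homologous to ARID2, 4397 bases), pbrm-1 (WBGene00007042, polybromo, 6102 bases) and swsn-9 (WBGene00007256, a bromodomain protein, 2235 bases). The core genes swsn-3 (WBGene00022182, homologous to SMARCE1) and swsn-6 (WBGene00022774, an actin-related protein) are the shortest, with 1671 and 1570 bases. The libraries carry no strand information, and exons of swsn-6 and pbrm-1 overlap those of genes on the other strand over 73 and 60 bases, so a small part of their reads cannot be assigned with certainty.

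All values are regularised log (rlog) values on a log2 scale, normalised separately in each background, so tests stay within a background. The depth of sequencing cannot be read from normalised values and is unknown. The median rlog of the kept genes per library ran from 7.55 to 7.68 with wild-type daf-2 and from 7.59 to 7.70 with daf-2(e1370). The bcl-11(bon144) libraries stood apart from each other. Their mean rlog over 9 sperm markers was 4.42, 7.11, 9.09 and 4.49 in replicates 1 to 4, against 4.55 to 6.68 in wt. Of these markers 8 passed the filter, and all 9 were higher in replicates 2 and 3 than in 1 and 4. All 11 oocyte and maternal markers were lowest in replicate 1, with a mean rlog of 11.73 there against 12.61 to 12.88 in the other bcl-11(bon144) libraries. Replicate 4 of daf-2(e1370) also stood apart, with a mean rlog of 9 sperm markers of 7.63, against 5.09 to 5.95 in the other daf-2(e1370) libraries. In whole animals, fewer cells of a type and less RNA per cell cannot be told apart.

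The members spanned a wide range of levels. Counts rise with the length of a transcript, so levels between genes were compared as rlog minus log2 of the exon length in kilobases (level per kb). This length merges the exons of all annotated transcripts, 8 for swsn-1 and 5 for swsn-8, against 1 for swsn-4. The level per kb is understated where shorter transcripts are the ones expressed, which was not examined. In wt the order of the level per kb was swsn-9 (10.71 ± 0.19, SD, n = 4), swsn-4 (10.43 ± 0.24), pbrm-1 (9.76 ± 0.22), swsn-6 (9.74 ± 0.15), swsn-7 (9.37 ± 0.22), swsn-8 (7.94 ± 0.24), swsn-3 (7.01 ± 0.07), swsn-1 (6.84 ± 0.33) and bcl-11 (4.47 ± 0.20). Libraries of neighbouring genes overlapped for swsn-9 and swsn-4, for pbrm-1 and swsn-6, for swsn-6 and swsn-7, and for swsn-3 and swsn-1. The ranges of the other neighbours did not overlap. Compared within the same library, swsn-9 was above swsn-4 and swsn-6 above swsn-7 in 4 of 4 libraries. This was so in 3 of 4 for swsn-3 above swsn-1 and in 2 of 4 for pbrm-1 above swsn-6. The ATPase transcript and the bromodomain transcript swsn-9 were thus at the top, the ARID1-type transcript swsn-8 was 1.43 lower per kb than the ARID2-type transcript swsn-7, and bcl-11 was 2.37 below swsn-1, the lowest of the 8 subunits.

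In daf-2(e1370) the same transcripts stood at the top and at the bottom. The level per kb was 10.46 ± 0.24 (SD, n = 4) for swsn-9, 10.45 ± 0.19 for swsn-4, 9.81 ± 0.09 for swsn-6, 9.75 ± 0.26 for pbrm-1, 9.27 ± 0.22 for swsn-7, 7.81 ± 0.16 for swsn-8, 7.32 ± 0.20 for swsn-3, 6.89 ± 0.19 for swsn-1 and 5.19 ± 0.27 for bcl-11. Neighbours overlapped for swsn-9 and swsn-4, swsn-6 and pbrm-1, and pbrm-1 and swsn-7. Within the same library, the first of each pair was above the second in 2, 1 and 4 of 4 libraries. Set side by side without a test, the mean rlog of bcl-11 was 0.71 higher in daf-2(e1370) than in wt. The difference of the 8 subunits had a median of 0.01, and that of all 13131 genes 0.03. A larger difference than that of bcl-11 was found for 2173 genes (16.5%), so bcl-11 was not among the extremes of this comparison, which also holds the separate normalisation of the tables.

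**Figure D1:**
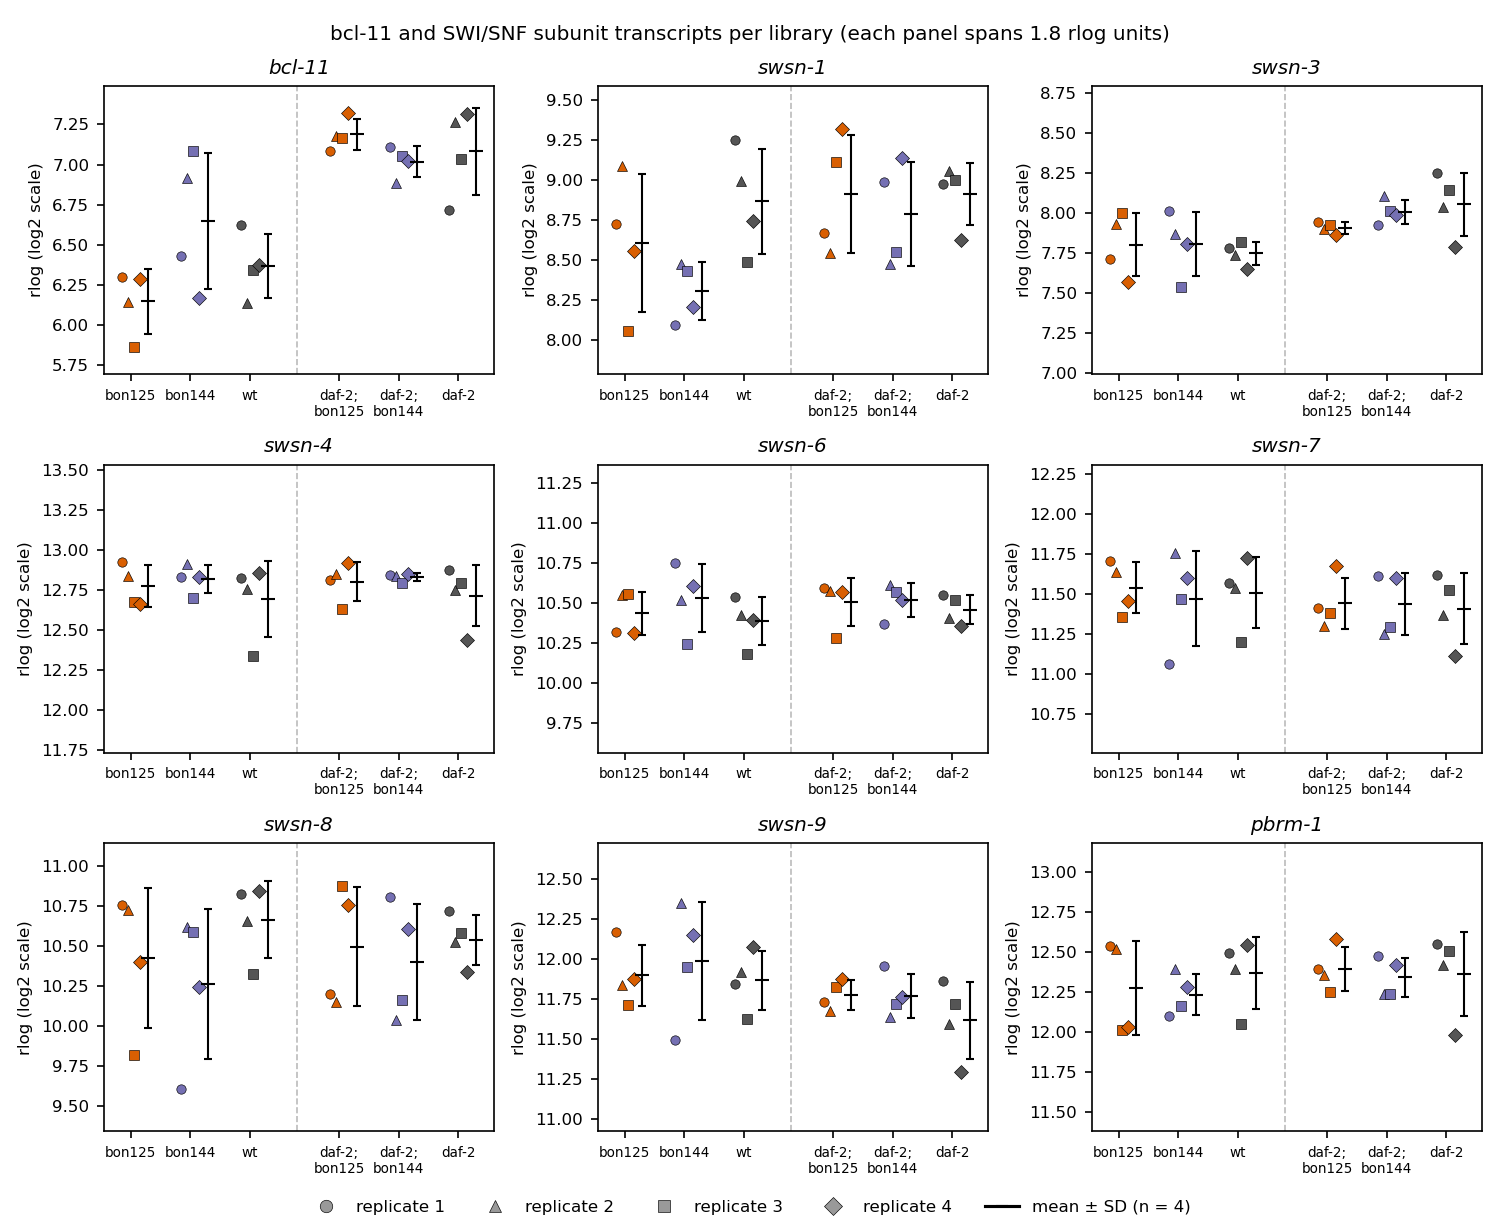
Rlog values (log2 scale, vertical axis) of the 9 transcripts in each library of the 6 genotypes, with symbols for replicates 1 to 4 and the mean ± SD (n = 4) beside them. The dashed line separates the 2 tables, which were normalised separately, and each panel spans the same range of rlog units. Mutant and control libraries overlap in every panel and background except for swsn-1 in bcl-11(bon144) against wt.

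The transcript of bcl-11 itself was compared first. Reads were assigned to reference transcripts, so reads from sequence that an allele deletes or adds may not be counted for bcl-11. This limit holds for each difference of an allele from its control and for those between the alleles. Its part in them was not tested. Replicates 1 to 4 of bcl-11(bon125) had an rlog of 6.30, 6.14, 5.86 and 6.29, those of bcl-11(bon144) 6.43, 6.92, 7.08 and 6.17, and those of wt 6.62, 6.13, 6.34 and 6.37. The libraries of bcl-11(bon144) were the most spread, and those of each mutant overlapped those of wt. The difference from wt was -0.22 for bon125 (95% interval -0.65 to 0.21, adjusted p of limma 1.000) and 0.28 for bon144 (-0.15 to 0.71, adjusted p of limma 0.832). When 1 library was left out, the value ran from -0.30 (without replicate 2 of wt) to -0.13 (without replicate 3 of bcl-11(bon125)) for bon125, and from 0.14 (without replicate 3 of bcl-11(bon144)) to 0.44 (without replicate 4 of bcl-11(bon144), unadjusted p of limma 0.0364, adjusted p 0.725) for bon144. The 2 bcl-11(bon144) libraries with the highest bcl-11 were replicates 2 and 3, which also had the highest mean rlog of sperm markers, as given above, and of 4 body muscle markers (10.89 and 11.13, against 10.01 and 9.91 in replicates 1 and 4). The 4 adult hypodermis markers were also highest in these 2 libraries (7.38 and 7.54, against 6.54 and 6.78). The match was not general. In wt, replicate 3 had the highest sperm and body muscle means (6.68 and 11.43), but bcl-11 was highest in replicate 1, where the sperm mean was lowest (4.55). In bcl-11(bon125), bcl-11 and the body muscle mean (11.00) were highest in replicate 1, but the sperm mean in replicate 2 (6.23). The part of these markers in the level of bcl-11 was not tested.

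In the daf-2 background bcl-11 was more even. Its rlog was 7.09, 7.18, 7.17 and 7.32 in the bon125 double mutants, 7.11, 6.88, 7.05 and 7.02 in the bon144 double mutants, and 6.72, 7.26, 7.03 and 7.31 in daf-2(e1370). All libraries of both double mutants lay within the range of daf-2(e1370) or within 0.01 of its highest value. The difference from daf-2(e1370) was 0.11 for bon125 (95% interval -0.17 to 0.38, adjusted p of limma 1.000) and -0.06 for bon144 (-0.34 to 0.21, adjusted p of limma 1.000). The difference of bcl-11 passed the test with neither allele in either background, and in the daf-2 background the intervals leave out a difference of 1.5-fold.

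Next, the 8 subunits were compared in the single mutants, to ask whether the complex is expressed at another level when bcl-11 function is reduced. A gene was called when the adjusted p of limma was under 0.05 and the change over 1.5-fold. In bcl-11(bon125) against wt, 0 of the 9 members were called and 0 had an unadjusted p under 0.05, against 0% and 1.55% of the 13459 genes tested. As the fit called no gene here, the count of called members had to be 0. The study, by its own processing, does report dysregulated genes between these genotypes, so the 0% holds for the fit used here. The libraries of the genotypes overlapped for all 9 members, while they were separate for 1.95% of the genes. The log2 fold changes of the members ran from -0.26 to 0.08 (median 0.03, all genes -0.01). The ATPase swsn-4 had 12.92, 12.84, 12.67 and 12.66 in bcl-11(bon125), against 12.82, 12.75, 12.34 and 12.86 in wt, a difference of 0.08 (95% interval -0.21 to 0.37). The lowest values of -0.26 and -0.24 belonged to swsn-1 and swsn-8 (95% intervals -0.72 to 0.19 and -0.77 to 0.29). They were -0.08 and -0.04 without replicate 3 of bcl-11(bon125).

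With bon144 against wt, 0 of the 9 members were called by limma, against 0.0669% of all genes, and 1 had an unadjusted p under 0.05, against 7.1%. This was swsn-1, the scaffold subunit. Its rlog was 8.10, 8.48, 8.44 and 8.21 in bcl-11(bon144), against 9.25, 9.00, 8.49 and 8.74 in wt. Every bcl-11(bon144) library was below every wt library, although the highest of the mutants and the lowest of wt were nearly equal, and 4.13% of all genes had separate libraries in this comparison. The difference was -0.56 (SE 0.21, 95% interval -1.02 to -0.11), a ratio of 0.677, with an unadjusted p of 0.0191 and an adjusted p of limma of 0.628, so it did not pass the test. When 1 library was left out, the difference was -0.69 to -0.43, and the unadjusted p was 0.0682 without replicate 1 of wt.

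The BAF subunit swsn-8 was the next lowest in bcl-11(bon144). Its rlog was 9.61, 10.62, 10.59 and 10.24 there, against 10.83, 10.66, 10.33 and 10.85 in wt. Replicate 1 of bcl-11(bon144) alone lay far below the others, and the groups overlapped. The difference was -0.40 (95% interval -0.93 to 0.13, adjusted p of limma 0.791). It was -0.18 without replicate 1 of bcl-11(bon144) and -0.34 to -0.52 without any other library. The other subunits had smaller differences. They were 0.13 for swsn-4, 0.15 for swsn-6, 0.12 for swsn-9, 0.06 for swsn-3, -0.04 for swsn-7 and -0.14 for pbrm-1, with a median of 0.06 over the 9 members and 0.01 over all genes. Of these, swsn-6 was higher in 4 of 4 same-numbered pairs, with a mean rlog of 10.53 ± 0.21 (SD, n = 4) in bcl-11(bon144), against 10.39 ± 0.15 (SD, n = 4) in wt (interval -0.13 to 0.42, adjusted p of limma 0.877). The difference of swsn-6 was 0.07 without replicate 1 of bcl-11(bon144) and 0.24 without its replicate 3.

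In the daf-2 background the subunits were compared with daf-2(e1370), since the study asks whether bcl-11 matters when insulin signalling is reduced. For bon125, 0 of the 9 members were called by limma and 0 had an unadjusted p under 0.05, against 0.0141% and 4.11% of the 14169 genes tested, and all 9 overlapped, whereas 1.77% of genes had separate libraries. For bon144 the counts were also 0 of 9 and 0 of 9, against 0.0565% and 3.47% of genes, with all 9 overlapping against 2.31% of genes with separate libraries. The log2 fold changes ran from -0.15 (swsn-3) to 0.16 (swsn-9) for bon125 and from -0.14 (swsn-8) to 0.15 (swsn-9) for bon144. The 95% interval of each of the 9 members lay within a change of 1.5-fold in either direction with both alleles. In the wild-type background this was so for 6 of 9 members with each allele. The exceptions were bcl-11, swsn-1 and swsn-8.

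The rlog of the ATPase swsn-4 was 12.81, 12.85, 12.63 and 12.92 in the bon125 double mutants, 12.84, 12.84, 12.79 and 12.85 in the bon144 double mutants, and 12.88, 12.75, 12.79 and 12.44 in daf-2(e1370). Replicate 4 of daf-2(e1370), the library with the high sperm markers, had the lowest value. The differences from daf-2(e1370) were 0.09 (95% interval -0.15 to 0.33) for bon125 and 0.12 (-0.12 to 0.35) for bon144, and without that library they were -0.002 and 0.025. The part of the sperm markers in this was not tested. For swsn-1 the rlog was 8.67, 8.54, 9.12 and 9.32 in the bon125 double mutants, 8.99, 8.48, 8.55 and 9.14 in the bon144 double mutants, and 8.98, 9.06, 9.00 and 8.63 in daf-2(e1370). The double mutants spread more widely than daf-2(e1370) and overlapped it, with differences of -0.003 and -0.13.

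**Figure D2:**
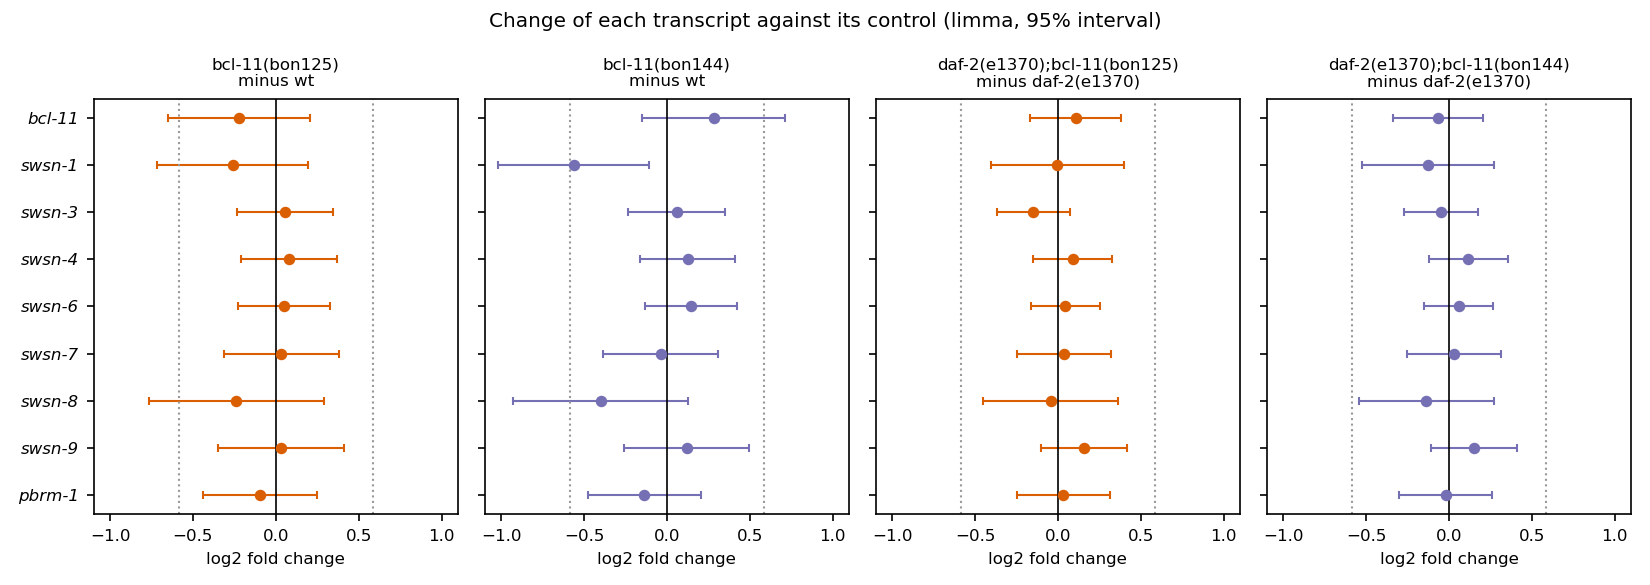
Log2 fold change (horizontal axis) of each transcript in the 4 mutants against their controls, with 95% intervals from limma (n = 4 libraries per genotype). The dotted lines mark a change of 1.5-fold. All intervals cover 0 except that of swsn-1 in bcl-11(bon144) against wt, -1.02 to -0.11.

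The alleles were then compared with each other. In bcl-11(bon144) against bcl-11(bon125), 0 of 9 members were called by limma, against 0.0446% of genes, and 1, bcl-11, had an unadjusted p under 0.05, against 5.68%. No member had separate libraries, against 2.94% of genes. The mean rlog of bcl-11 was 6.65 ± 0.43 (SD, n = 4) with bon144, against 6.15 ± 0.20 (SD, n = 4) with bon125. It was higher in 3 of 4 same-numbered pairs, by 0.50 on average (95% interval 0.07 to 0.93, unadjusted p of limma 0.0251, adjusted p 0.870), and by 0.36 to 0.66 when 1 library was left out. The unadjusted p was no longer under 0.05 without replicate 2 or 3 of bcl-11(bon144) or replicate 3 of bcl-11(bon125). In the bon144 against the bon125 double mutants, 0 of 9 members were called by limma and 0 had an unadjusted p under 0.05, against 0.0494% and 3.24% of genes, and no member had separate libraries, against 3.05% of genes. Here bcl-11 differed by -0.17 (95% interval -0.44 to 0.10).

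Whether an allele's effect differed between the backgrounds was tested on the genes kept in both tables. For bon125, 0 of 9 members were called by limma and 0 had an unadjusted p under 0.05, against 0% and 3.39% of the 13131 genes. For bon144 the counts were 0 and 0, against 0.0609% and 2.72%. The largest differences were those of swsn-1 for bon144, 0.44 (95% interval -0.18 to 1.05), of bcl-11 for bon144, -0.35 (-0.84 to 0.15), and of bcl-11 for bon125, 0.33 (-0.17 to 0.82). These intervals are wide, and differences within them are not excluded.

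The further subunits of the complex were counted in the same way. The list held the SMARCD homologues swsn-2.2 and ham-3, the SNF5 homologue snfc-5, the PHD finger genes dpff-1 and phf-10, and bcl-7. All 6 passed the filter in both tables, and 0 were called in the 4 comparisons of a mutant with its control, where 0 also had an unadjusted p of limma under 0.05. Over all genes these shares were 0% to 0.0669% and 1.55% to 7.1%. With bon144 against wt all 6 had positive differences, of 0.10 to 0.17 (median 0.14, all genes 0.01), with adjusted p-values of limma of 0.794 and above. Without replicate 1 of bcl-11(bon144), left out after the data were seen, the difference was -0.08 for bcl-7 and -0.002 for snfc-5, and 0.12 to 0.16 for the other 4. Separate libraries were found for swsn-2.2 in bcl-11(bon144) against wt (10.13 to 10.37, against 10.03 to 10.11), 1 of 6 genes against 4.13% of all genes. They were also found for dpff-1 in the bon144 double mutants against daf-2(e1370) (9.33 to 9.39, against 8.94 to 9.31), 1 of 6 against 2.31%, and against the bon125 double mutants (9.33 to 9.39, against 9.13 to 9.33), 1 of 6 against 3.05%. The differences of 0.10, 0.18 and 0.09 did not pass the test. Between the alleles, phf-10 had 7.25, 7.38, 7.46 and 7.57 in bcl-11(bon144), against 6.98, 7.08, 7.09 and 7.28 in bcl-11(bon125). It was higher in 4 of 4 same-numbered pairs, by 0.31, with an unadjusted p of 0.0257 and an adjusted p of limma of 0.870. In wt, snfc-5 (9.85 per kb) stood next to pbrm-1, and phf-10 (5.85 per kb) stood between swsn-1 and bcl-11.

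Other chromatin remodellers were counted for comparison. Of 9 genes of the NuRD complex, which joins a remodelling ATPase to histone deacetylases, 0 were called in any of the 8 comparisons by limma, and 1 had an unadjusted p under 0.05, in bcl-11(bon144) against wt. Of 7 genes of other SNF2-family remodellers, 0 were called and 0 had an unadjusted p under 0.05 in any comparison. Over all genes, 0% to 0.0669% were called in the 8 comparisons, and 1.55% to 7.1% had an unadjusted p of limma under 0.05. The highest of these shares were those of bcl-11(bon144) against wt. The median log2 fold change in bcl-11(bon144) against wt was -0.004 for NuRD and -0.14 for the other remodellers.

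The members varied between libraries of the same genotype, and some varied together. The pooled SD within genotypes was largest for swsn-8, 0.40 with wild-type daf-2 and 0.31 with daf-2(e1370), above that of 88.8% and 91.7% of genes. It was 0.33 and 0.30 for swsn-1 and 0.30 and 0.18 for bcl-11, while swsn-4 (0.17 and 0.13), swsn-6 (0.17 and 0.12) and swsn-3 (0.17 and 0.12) were below the median of all genes (0.22 and 0.17). Deviations from the genotype means were correlated over the 12 libraries of a table. These correlations are descriptions, since the points share libraries. Among the 28 pairs of the 8 subunits the median r was 0.52 in the wild-type background, with 20 pairs positive, and 0.60 in the daf-2 background, with 26 positive. Among the PBAF transcripts r was 0.95 and 0.88 for swsn-7 and swsn-9, 0.82 and 0.91 for swsn-7 and pbrm-1, and 0.67 and 0.86 for swsn-9 and pbrm-1. This was not particular to PBAF. The BAF transcript swsn-8 had 0.86 and 0.74 with swsn-7, 0.79 and 0.72 with swsn-9, and 0.76 and 0.49 with pbrm-1. The ATPase swsn-4 went with pbrm-1 (0.87 and 0.91), and swsn-1 with swsn-8 (0.79 and 0.90). Pairs of bcl-11 with a subunit had lower values, from -0.55 to 0.63 (median 0.25) in the wild-type background and from -0.87 to 0.14 (median -0.405) in the daf-2 background. With swsn-3, bcl-11 had r = -0.54 and -0.87.

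**Figure D3:**
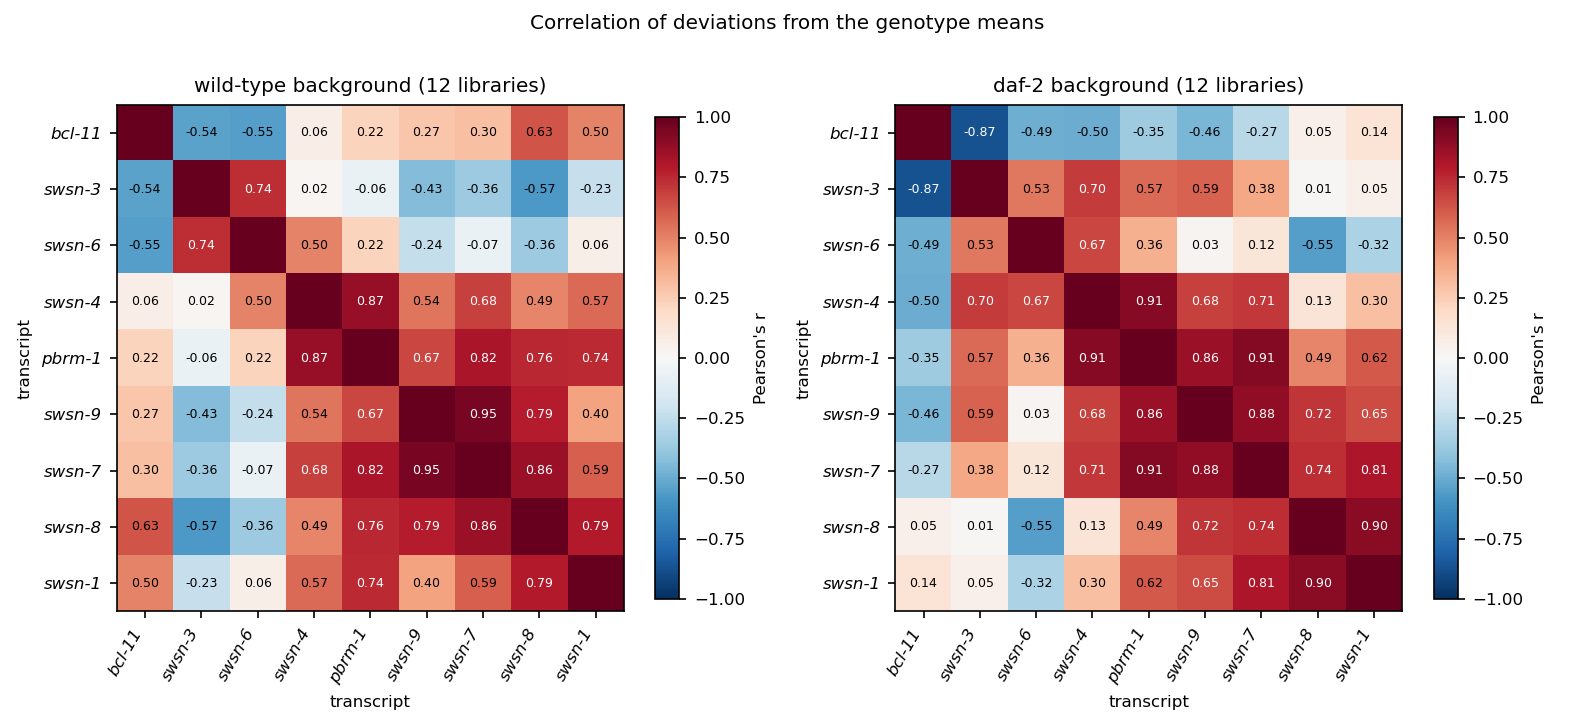
Pearson's r of the deviations from the genotype means for each pair of the 9 transcripts, over the 12 libraries of the wild-type background (left) and of the daf-2 background (right), on a colour scale from -1 to 1. The block of swsn-4, pbrm-1, swsn-9, swsn-7, swsn-8 and swsn-1 is positive throughout in both backgrounds, whereas bcl-11 is negative with swsn-3 and swsn-6.

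Libraries also differed in how long transcripts stood against short ones, and several members moved with this. A long-gene index was set for each library after the data were seen, as the median deviation of the longest protein-coding genes from their means over all libraries of the table, minus that of the shortest. In the wild-type background these were the 1295 longest genes, with at least 3215 bases of exon, and the 1295 shortest. In the wild-type background it was lowest in replicate 1 of bcl-11(bon144), -0.53, and in replicate 3 of bcl-11(bon125), -0.44, and highest, 0.33, in replicate 2 of bcl-11(bon144). Among the daf-2(e1370) genotypes it ran from -0.21 to 0.20. Within genotypes the correlation of swsn-8 with the index was 0.96 in the wild-type and 0.87 in the daf-2 background, and that of swsn-7 was 0.90 and 0.92. It was 0.72 and 0.80 for pbrm-1, 0.65 and 0.90 for swsn-1, and lower, 0.46 and 0.53, for swsn-4, although swsn-4 is longer than swsn-7 and swsn-1. For swsn-9 it was 0.90 and 0.82, although its exons are shorter than those of bcl-11 (0.55 and -0.03). The short swsn-6 had -0.41 and -0.19, and the further subunits snfc-5 and bcl-7 had -0.81 and -0.35, and -0.79 and -0.61. The short swsn-3 had -0.58 and 0.17, and the other further subunits were also positive in the daf-2 background. These were swsn-2.2 (-0.42 and 0.36), ham-3 (-0.20 and 0.55), dpff-1 (0.16 and 0.38) and phf-10 (0.01 and 0.78). Members above the bound, such as swsn-8, swsn-7 and bcl-11, are themselves among the genes of the index, and the part of the index in their shared variation was not tested. With the index as a covariate, chosen after the data were seen, 0 members were called in any comparison. Of the 13459 genes tested, 6 were called in bcl-11(bon125) against wt and 16 in bcl-11(bon144) against wt. Of the 72 member differences, 5 had an unadjusted p of limma under 0.05. The share of all genes with such a p was not counted for this fit. With this covariate and bon144 against wt, swsn-8 differed by -0.34 (unadjusted p of limma 0.00319, adjusted p 0.180) and swsn-1 by -0.53 (unadjusted p 0.00911, adjusted p 0.261). In bcl-11(bon144) against bcl-11(bon125), bcl-11 differed by 0.48 (unadjusted p of limma 0.0198, adjusted p 0.407) and swsn-8 by -0.22 (unadjusted p 0.0347, adjusted p 0.464). The bon144 effect on swsn-1 differed between backgrounds by 0.43 (unadjusted p of limma 0.0462, adjusted p 0.9998).

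**Figure D4:**
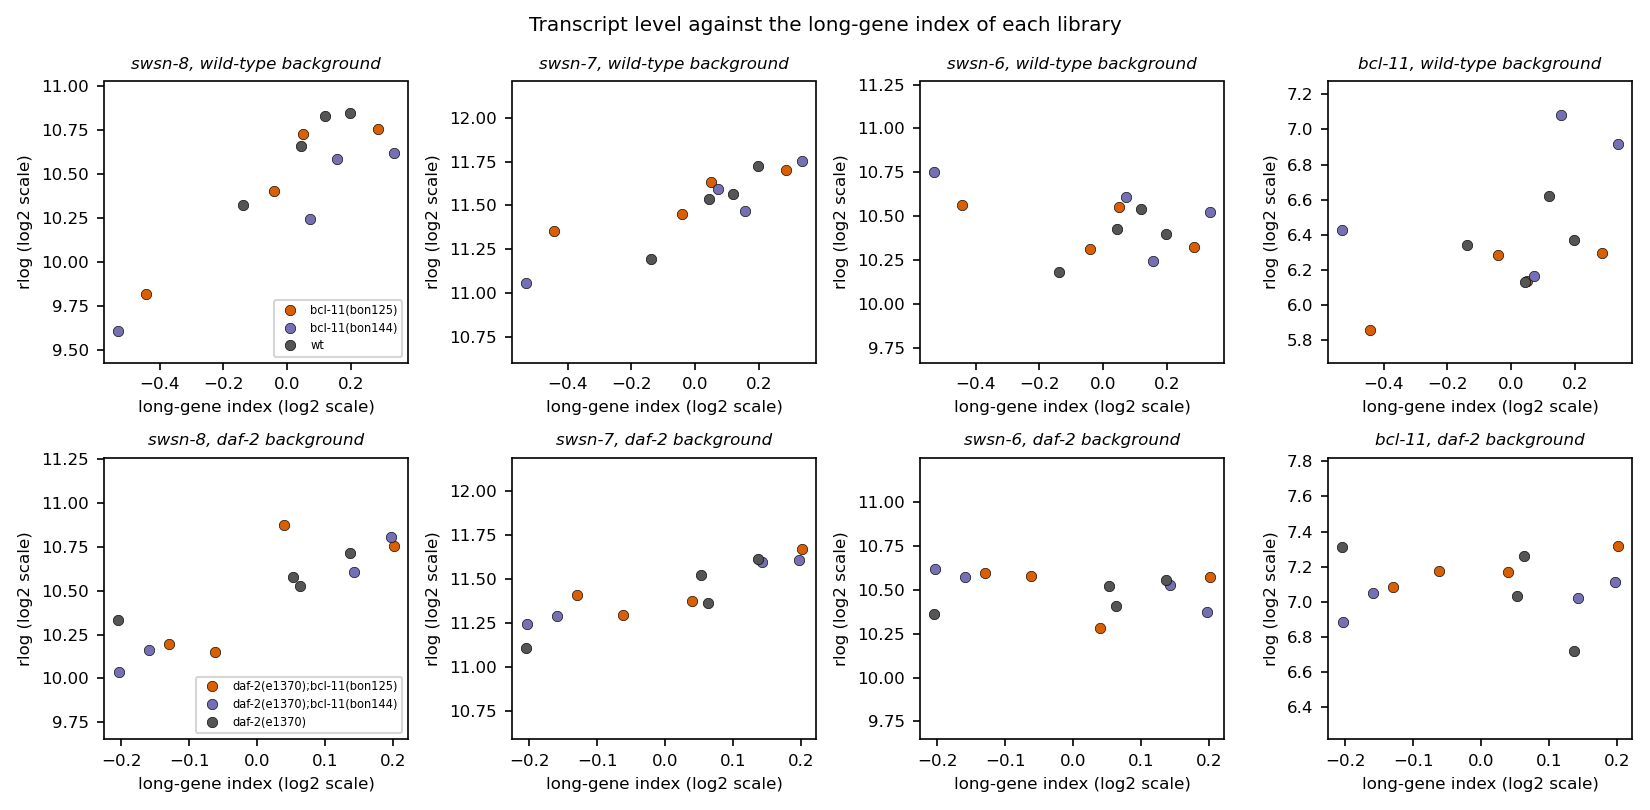
Rlog (log2 scale, vertical axis) of swsn-8, swsn-7, swsn-6 and bcl-11 against the long-gene index (log2 scale, horizontal axis) of each library, in the wild-type background (top) and the daf-2 background (bottom). Points are single libraries coloured by genotype, and swsn-8 is lowest, 9.61, where the index is lowest, -0.53.

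Finally, the genes whose pattern over the libraries was most like that of bcl-11 and of the ATPase swsn-4 were listed, by the mean of the Pearson correlations over the 12 libraries of each table, among 13130 genes. Differences between genotypes were kept in these correlations, unlike in those of the deviations from the genotype means given above. For bcl-11 they were nkb-3 (WBGene00010117, a subunit of the sodium/potassium ATPase, r = 0.83 in the wild-type and 0.79 in the daf-2 background), scav-4 (WBGene00008692, of the scavenger receptor family, 0.85 and 0.75) and sur-5 (WBGene00006351, 0.82 and 0.76), all on chromosome X. None of the 8 subunits was near them. The closest to bcl-11 was swsn-8, at rank 3590 with a mean r of 0.20, and swsn-3 was at rank 13097 with -0.62. For swsn-4 the nearest genes were mix-1 (WBGene00003367, 0.98 and 0.94) and dpy-26 (WBGene00001085, 0.88 and 0.93), both subunits of condensin complexes, and bmk-1 (WBGene00000257, a kinesin, 0.93 and 0.88). Among the members, pbrm-1 was closest to swsn-4, at rank 39 with a mean r of 0.75, followed by swsn-7 at rank 153 and swsn-9 at rank 156, and bcl-11 was at rank 8577 with -0.15.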

How the data were processed

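Total RNA of whole worms was converted to cDNA by Smart-seq2, which covers whole transcripts and does not keep strand, sequenced in paired-end mode and assigned with Kallisto to Ensembl transcripts of WBcel235 (the submitters' processing notes name bcl2fastq 2.20 and Kallisto 048.0). The authors deposited gene-level rlog values, which are on a log2 scale and corrected for library size, in 2 tables, one per background. The rlog transformation shrinks differences where expression is weak, so changes of weak genes are understated. Read counts were not used here.

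Groups and replicate numbers came from the labels. Replicate numbers equal the batch that the labels give for each library, and the pairing rests on these labels. Deviations of same-numbered libraries from their group means correlated with a mean r of 0.0304 to 0.243 in the 6 comparisons, and the lowest single pair had -0.248. Nothing in the labels says that libraries came from separate cultures, so p-values measure the spread between these libraries, which may be technical. The filter kept 13459 and 14169 genes whose mean rlog in a table was 3 or more. Genotype means were fitted with limma 3.58.1 in R 4.3.3 (eBayes with a trend), with two-sided p-values adjusted by the Benjamini-Hochberg method over all genes kept. The code was tested on simulated data. Alternatives were a replicate block, library weights, no trend, a robust fit, only the compared genotypes, other filters, median centring, no fold threshold, leaving out each library, and the long-gene index as a covariate, the last added after the data were seen.

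The members and lists were chosen with earlier results of these data known. The 9 members are named in all comparisons, further SWI/SNF subunits may be named with values, other listed genes only where called, and for bcl-11 and swsn-4 the 3 genes of most similar pattern. Names, positions and exon lengths came from the Ensembl annotation of the same assembly. The name swsn-8 was matched to let-526 by its known synonym, since the annotation gives only let-526. No sequences are printed.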

Additional observations from a re-analysis of the deposited data

Results flagged for a closer look

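In 1 of 54 groups of 4 libraries (9 members in 6 genotypes), a single library lay far from the other 3 relative to the range of the group. This was swsn-6 in the bon125 double mutants, where replicate 3 had an rlog of 10.28, against 10.57 to 10.59 in the other libraries. Chance alone gives about 1 such group in 20. The effect of neither allele on any of the 9 members differed between the backgrounds in the test of the difference (adjusted p of limma 1.000 for the lowest), and for 0 members did all 4 same-numbered pairs move one way in one background and the other way in the other.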

How the results depend on the processing

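Under all alternatives, 0 of the 9 members were called by limma in any of the 8 comparisons, and the smallest adjusted p was 0.180, that of swsn-8 in bcl-11(bon144) against wt with the long-gene index as covariate. The replicate block changed no call of a member, with a smallest adjusted p of 0.482. Over the alternatives swsn-1 in bcl-11(bon144) against wt stayed between -0.69 and -0.43 (adjusted p of limma 0.261 to 0.998), and bcl-11 in bcl-11(bon144) against bcl-11(bon125) between 0.36 and 0.66 (adjusted p of limma 0.314 to 0.992). Counts of called genes over the whole table moved more. In bcl-11(bon125) against wt they were 0 in the main analysis, 1 with the replicate block, 4 with library weights, 4 with only the compared genotypes, 2 with the robust fit and 6 with the index. In bcl-11(bon144) against wt they were 9, and 2 with the block, 1 with only the compared genotypes and 16 with the index, and 1 to 17 without any one library. Between the alleles they were 6, and 3 with the block, 1 with only the compared genotypes and 1 to 16 without any one library. In the bon125 double mutants against daf-2(e1370) they were 2, and 5 with the index and 2 to 4 without any one library. In the bon144 double mutants against daf-2(e1370) they were 8, and 3 with only the compared genotypes, 11 with library weights and with no fold threshold, and 3 to 6 without any one library. In the bon144 against the bon125 double mutants they were 7, and 11 with library weights and with centring, and 3 to 7 without any one library. For the bon125 effect between backgrounds they were 0, and 3 with library weights and with the index, and 0 to 1 without any one library. For the bon144 effect between backgrounds they were 8, and 5 with the block, 15 with library weights, 5 with a minimum mean rlog of 5 and 4 to 10 without any one library. The cause was not tested. With unknown depth and 4 libraries per genotype, small changes of the wider-spread members in the wild-type background could not be detected.

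Of 1422 alternative values of the 72 member differences, 123 had the other sign than the main analysis, 97 of them without one library. The main value was at most 0.26 in size in each of these, and no value of the other sign had an unadjusted p of limma under 0.211. The cause was not tested.

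With library weights these were swsn-7 -0.008 and swsn-9 -0.020 in bcl-11(bon125) against wt, swsn-7 0.050 in bcl-11(bon144) against wt, swsn-3 -0.006, swsn-7 0.057 and pbrm-1 0.010 in bcl-11(bon144) against bcl-11(bon125), swsn-7 -0.042 and pbrm-1 -0.050 in the bon125 double mutants against daf-2(e1370), bcl-11 0.025 and swsn-7 -0.103 in the bon144 double mutants against daf-2(e1370), swsn-7 -0.030 in the bon125 effect between backgrounds, swsn-7 -0.161, swsn-8 -0.019, swsn-9 -0.212 and pbrm-1 -0.039 in the bon144 effect between backgrounds. With libraries centred on their median these were swsn-3 -0.014 in bcl-11(bon144) against bcl-11(bon125), swsn-1 0.001 in the bon125 double mutants against daf-2(e1370), swsn-7 0.006 and swsn-9 0.004 in the bon144 against the bon125 double mutants, swsn-4 -0.027 and swsn-7 -0.033 in the bon125 effect between backgrounds. With the long-gene index as covariate these were swsn-7 0.016 and swsn-9 0.009 in the bon144 against the bon125 double mutants, swsn-4 -0.015, swsn-6 0.018 and swsn-7 -0.064 in the bon125 effect between backgrounds.

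In bcl-11(bon125) against wt the range without any one library was swsn-7 -0.072 to 0.104, swsn-9 -0.060 to 0.099, swsn-3 -0.010 to 0.134, swsn-4 -0.038 to 0.134 and swsn-6 -0.018 to 0.102. In bcl-11(bon144) against wt the range without any one library was swsn-3 -0.010 to 0.148, swsn-7 -0.140 to 0.100 and swsn-9 -0.003 to 0.284. In bcl-11(bon144) against bcl-11(bon125) the range without any one library was swsn-3 -0.075 to 0.092, swsn-7 -0.164 to 0.068, swsn-8 -0.364 to 0.058, pbrm-1 -0.129 to 0.047 and swsn-9 -0.033 to 0.254. In the bon125 double mutants against daf-2(e1370) the range without any one library was swsn-1 -0.139 to 0.120, swsn-8 -0.170 to 0.071, swsn-7 -0.063 to 0.106, pbrm-1 -0.095 to 0.095, bcl-11 -0.015 to 0.184 and swsn-4 -0.002 to 0.146. In the bon144 double mutants against daf-2(e1370) the range without any one library was swsn-7 -0.066 to 0.102, pbrm-1 -0.148 to 0.042, swsn-3 -0.136 to 0.018 and bcl-11 -0.186 to 0.013. In the bon144 against the bon125 double mutants the range without any one library was swsn-6 -0.061 to 0.063, swsn-7 -0.062 to 0.074, swsn-8 -0.227 to 0.034, swsn-9 -0.069 to 0.038, swsn-4 -0.029 to 0.066, swsn-1 -0.247 to 0.013 and pbrm-1 -0.101 to 0.008. In the bon125 effect between backgrounds the range without any one library was swsn-4 -0.082 to 0.127, swsn-6 -0.056 to 0.070, swsn-7 -0.095 to 0.107 and swsn-8 -0.007 to 0.310. In the bon144 effect between backgrounds the range without any one library was swsn-9 -0.130 to 0.156, swsn-4 -0.101 to 0.109, swsn-7 -0.068 to 0.172 and pbrm-1 -0.012 to 0.223.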

Other observations

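Deviations of the members from the genotype means were also correlated with those of the marker lists over the 12 libraries of each table, as descriptions with no test. With the mean of 8 germline markers, swsn-9 had r = 0.93 with wild-type daf-2 and 0.52 with daf-2(e1370), and swsn-7 had 0.86 and 0.67. Next came swsn-8 with 0.76 and 0.45, and pbrm-1 with 0.47 and 0.46. The other subunits had 0.33 and 0.41 (swsn-1), 0.36 and 0.27 (swsn-4), -0.42 and 0.15 (swsn-6), and -0.63 and 0.08 (swsn-3). With the mean of 11 oocyte and maternal markers, swsn-7 had 0.58 and 0.84, swsn-9 0.73 and 0.69, and swsn-8 0.47 and 0.62. The other subunits had 0.10 and 0.67 (pbrm-1), 0.002 and 0.66 (swsn-1), -0.12 and 0.43 (swsn-4), -0.44 and 0.19 (swsn-3), and -0.54 and 0.10 (swsn-6). The values of bcl-11 with these lists were 0.34 and -0.23, and 0.07 and -0.17. With 6 intestine markers, bcl-11 had r = 0.56 and 0.78, and with 4 body muscle markers 0.47 and 0.71, while swsn-9 had -0.09 and -0.58, and 0.11 and -0.84. The values of bcl-11 were also positive with the sperm markers, 0.55 and 0.57, and with adult hypodermis markers, 0.56 and 0.38. They were 0.10 and 0.28 with neuron markers, and -0.32 and -0.57 with zygotic markers of the embryo. With these zygotic markers, swsn-4 had 0.35 and 0.885, pbrm-1 0.10 and 0.82, swsn-3 0.46 and 0.72, and swsn-6 0.75 and 0.46. The values of swsn-9 were -0.44 and 0.73, of swsn-7 -0.29 and 0.71, of swsn-1 -0.06 and 0.44, and of swsn-8 -0.40 and 0.33. The intestine value of swsn-1, 0.54, was close to that of bcl-11 with wild-type daf-2, and was 0.08 with daf-2(e1370). Libraries of whole animals share 1 total, so a larger share of RNA from one tissue lowers the share of another.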
